A study of Mus musculus with 10 samples.

Results

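The genes that write and remove methyl groups on histone lysines were examined for peaks of RBPJ, through which Notch signalling reaches the DNA. The group was defined by name and location alone: protein-coding genes of the GENCODE M21 annotation on chromosomes 1 to 19 with symbols of the Kdm, Kmt and Setd series, or Ezh1, Ezh2, Ehmt1, Ehmt2, Suv39h1, Suv39h2 and Nsd1 to Nsd3. This gave 39 of the 20807 protein-coding genes on these chromosomes, of which 15 are demethylases of the Kdm series and 24 are methyltransferases or other Setd genes. Another 4 genes with such symbols (Suv39h1, Kdm6a, Kdm5c and Kdm5d) lie on X or Y and were left out by this definition. Of these, Kdm6a and Kdm5c had 1 peak each. RBPJ binding was measured by chromatin immunoprecipitation and sequencing in RD1 cells, labelled as brain pericytes of the mouse, which were grown without treatment in pericyte medium on dishes coated with collagen. The methods describe the pericytes used as primary cultures from brains of adult Rbpj lox/lox mice. They do not say whether RD1 is 1 such culture or whether the floxed allele was intact in these cells. The 10 samples form 5 groups of 2 (RBPJ, H3K4me1, H3K4me3, histone H3 and input chromatin), and the 8 samples other than RBPJ were not analysed here. The peak files of RBPJ replicates 1 and 2 were identical, so they count as 1 list of 11094 peaks with no height, score or depth. No spread between replicates exists for any value below, and intervals are 95% exact (Clopper-Pearson) intervals that cover counting error only. The list holds no expression, so the labelled cell type could not be checked on marker genes.

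Methyl groups on lysines of histones H3 and H4 mark the state of chromatin. Methylation of H3K4 accompanies promoters and enhancers and that of H3K36 transcribed genes, whereas methylation of H3K9, H3K27 and H4K20 accompanies silenced or compacted chromatin. The writers share a catalytic SET domain. The erasers are either amine oxidases (KDM1A and KDM1B) or dioxygenases with a JmjC domain (the other Kdm genes). Some of these enzymes are also known as partners of RBPJ itself: KDM5A and KDM1A have been linked to its repressor complexes, and KMT2D to the activation of Notch targets. The question here was a different one, namely at which of their genes an RBPJ peak lay.

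Peaks were assigned to a gene when their centre lay inside the gene body, up to 5 kb before its annotated 5' end (the transcription start site, TSS) or up to 1 kb after it. RBPJ recognises a short sequence with the core TGGGAA, and 8 of the 39 genes had this core within the central 200 bp of a peak. Counted by peak this was 21.6%, near the 22.6% of all peaks assigned to genes. These sites are shown because they are the places where the letters of the motif and the middle of a peak coincide. Each line gives 30 bases on GRCm38, read 5' to 3' on the strand that carries the core, with TGGGAA in capitals.
Nsd2 (chr5:33820031-33820060, minus strand): cgcttggtgtccTGGGAAggcatcgggagg
Kdm4b (chr17:56357765-56357794, minus strand): ccaggaagccagTGGGAAcagttgcctcac
Kmt5a (chr5:124446362-124446391, minus strand): tccggacaccctTGGGAAggcagccaccac
Setd5 (chr6:113077334-113077363, plus strand): tggcgccggcacTGGGAAtccccgtgcggt
Kmt2d (chr15:98867956-98867985, minus strand): tattcataatctTGGGAAttcttttctgtt
Kmt2b (chr7:30589041-30589070, plus strand): gggcgcgagaacTGGGAAtaccgggttggc
Kdm5b (chr1:134556227-134556256, plus strand): attgctgatactTGGGAAagcagaggatgg
Kdm2a (chr19:4315517-4315546, minus strand): tagagcagttccTGGGAAcagcctgggcat

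The sites lay at different places within the genes. The site of Setd5 was 17 bp upstream of the TSS. The site of Kmt2b was 329 bp and that of Nsd2 680 bp upstream, and the Kdm5b site was 3930 bp upstream. The other sites were inside the genes, at 3234 bp from the TSS in an intron of Kmt2d, at 6446 bp in an intron of Kmt5a, at 31717 bp in an intron of Kdm4b and at 82754 bp in an untranslated region near the 3' end of Kdm2a. The Nsd2 site was 1 bp from the centre of its peak, the Kdm4b site 10 bp, and the others 38 to 88 bp. The longer form GTGGGAA was found in the central 200 bp of 1 peak of the group, the intronic peak of Kdm4b, a share of 2.70% of the group's peaks beside 7.96% of all peaks assigned to genes by the same definition. Over whole peaks the order was the opposite, with GTGGGAA in 15 of the 37 peaks (40.5%) and in 28.0% of all assigned peaks. The group's peaks were also wider (median 1258 against 746 bp), and the part of width in this difference was not tested.

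In all, 27 of the 39 genes had an RBPJ peak, or 69.2% (interval 52.4 to 83.0%), against 36.5% of all protein-coding genes on chromosomes 1 to 19. A peak centred within 1 kb of the TSS was found at 22 genes, or 56.4% (39.6 to 72.2%), against 26.0% of all genes. The window from 5 kb upstream to 1 kb downstream held a peak at 25 genes (64.1%, with 28.3% of all genes), and the gene body at 18 (46.2%, with 26.3%). Altogether 37 peaks were assigned, none of them to more than 1 gene of the group. There were 19 genes with 1 peak, 6 with 2 and 2 with 3 (Kdm2a and Kdm6b), so that 20.5% had at least 2 peaks, where 6.50% of all genes did. All these shares were above those of all genes, but the genes of the group also differ from the average gene, as described next.

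**Figure D1:**
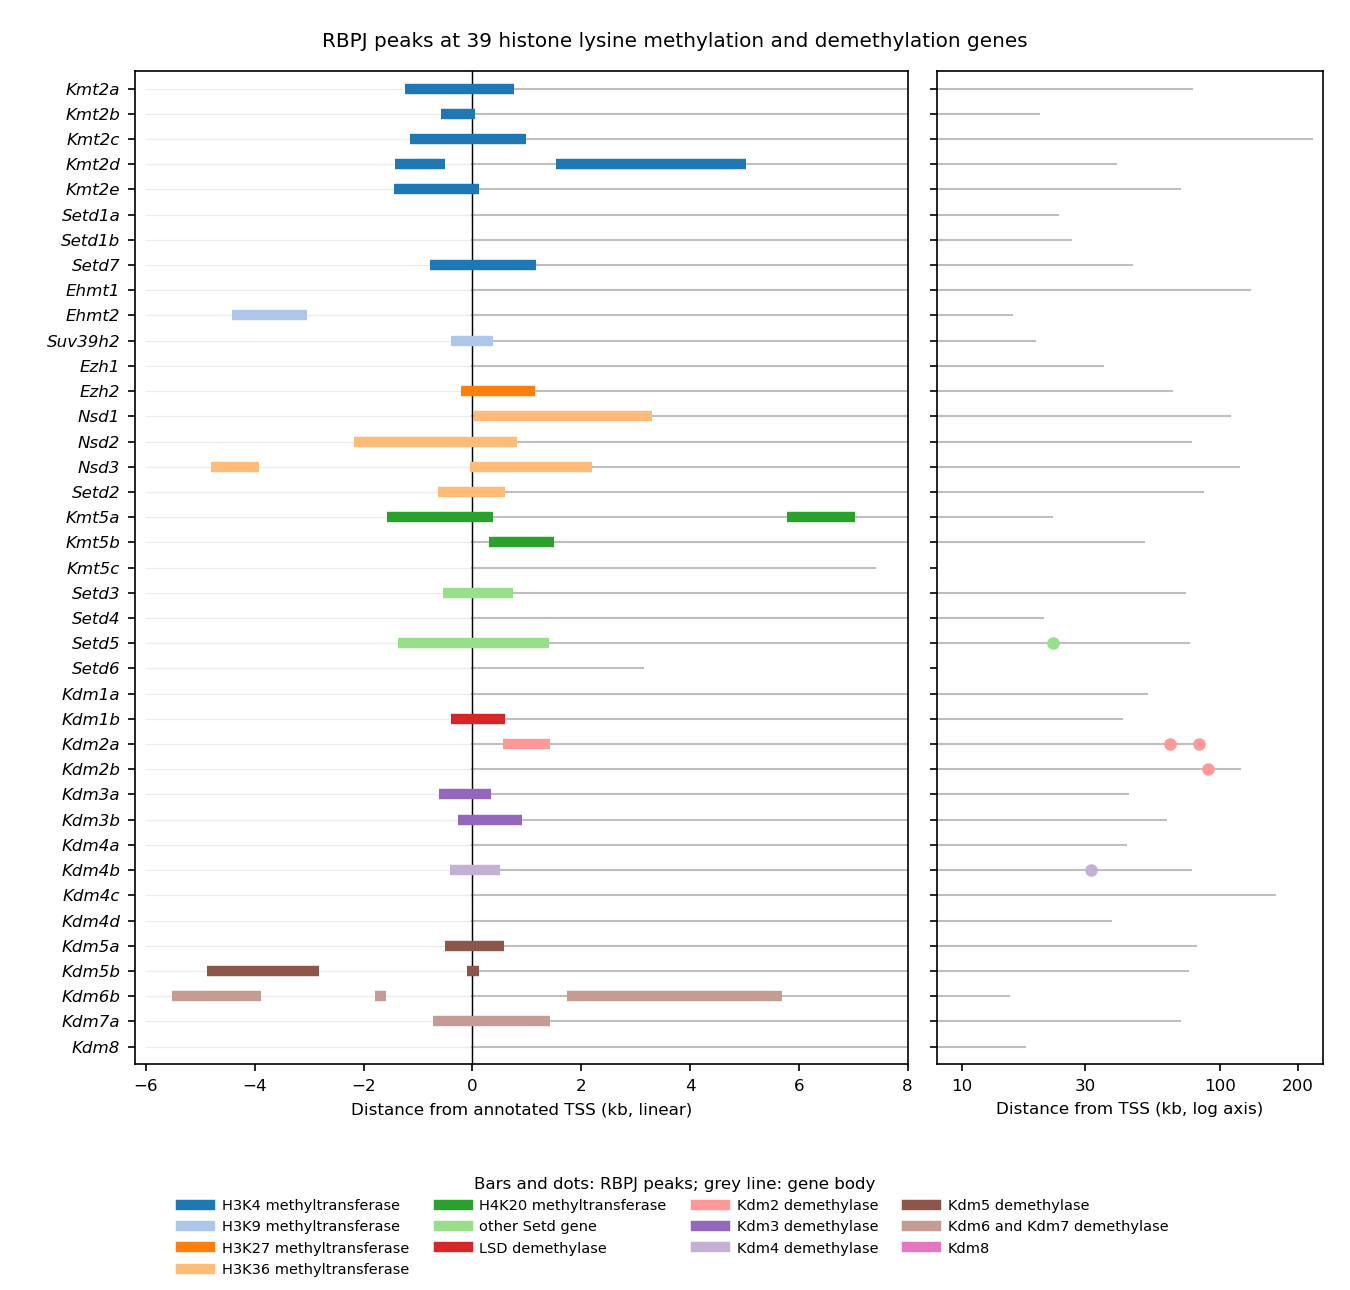
RBPJ peaks at each of the 39 genes, drawn in the direction of transcription with the annotated TSS at 0. Left, distance in kb on a linear axis with bars drawn to the width of each peak. Right, positions farther into the gene on a log axis, with dots at peak centres. Colours give the functional group. The bars of 20 genes cross the TSS, and 12 genes have no peak.

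The genes of the group were long and had promoters rich in CpG dinucleotides. Their median length was 52.2 kb (3.13 to 227 kb) beside 17.6 kb for all genes. The ratio of observed to expected CpG within 500 bp of the TSS had a median of 0.81 (0.17 to 1.11), beside 0.57 for all genes. Both properties went with RBPJ peaks in the genome as a whole. All genes were divided by length into 3 classes of equal size. Of those over 32.3 kb 52.0% had a peak, of the middle class 37.1%, and of those up to 9.38 kb 20.5%. A peak within 1 kb of the TSS was found at 1.72% of all genes with a CpG ratio under 0.3, at 16.5% from 0.3 to 0.6, at 44.5% from 0.6 to 0.9 and at 56.2% from 0.9. Within the group, 22 of the 28 genes in the upper length class had a peak (78.6%, interval 59.0 to 91.7%), 5 of 9 in the middle and 0 of 2 in the lower class. At a CpG ratio from 0.6 to 0.9, 14 of 24 genes had a promoter peak (58.3%, 36.6 to 77.9%), and at 0.9 or more 8 of 10 (80.0%, 44.4 to 97.5%). These last intervals both include the share of all genes in the same class. None of the 5 genes under 0.6 had a promoter peak, namely Kdm2b, Kdm4a, Kdm4c, Kdm6b and Nsd1.

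**Figure D2:**
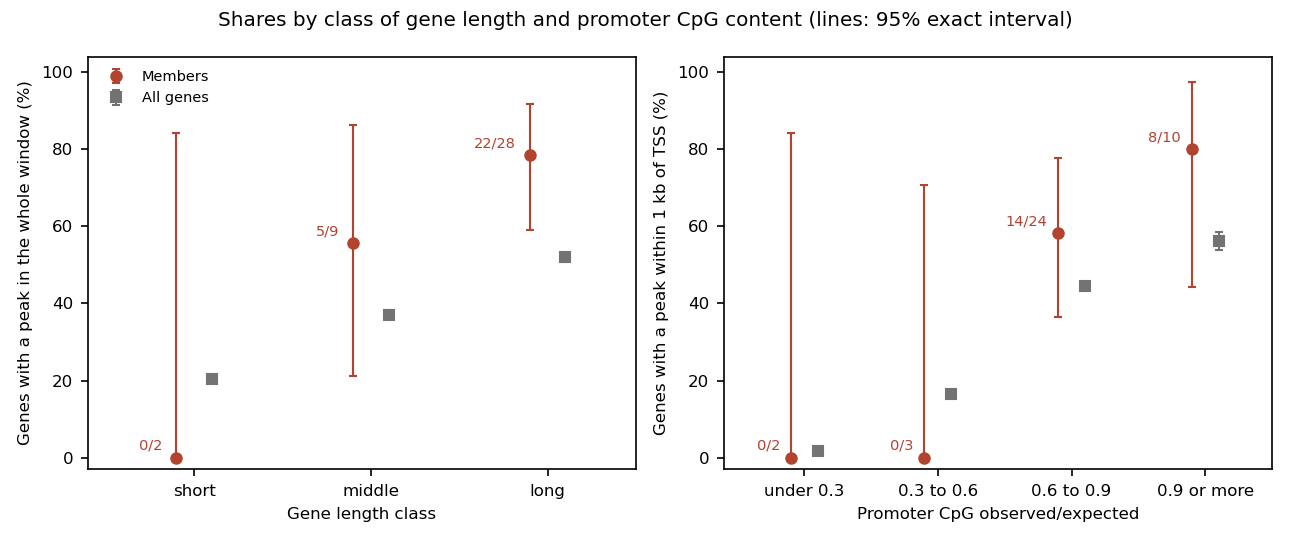
Share of genes with an RBPJ peak (vertical axes, percent) by class of gene length (left) and by CpG ratio around the TSS (right), for the group (red, with counts) and for all genes (grey). Lines are 95% exact intervals. Shares of all genes rise from 20.5 to 52.0% with length and from 1.72 to 56.2% with CpG ratio, and most intervals of the group include the grey point.

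Chromosomes 4 and 7 have few peaks in this list, with a peak at 7.22% of their protein-coding genes, and they carry 7 of the 39 genes. Only Kmt2b had a peak among them, and Kdm1a, Kdm4a, Kdm4c, Kdm8, Kmt5c and Setd1a did not. Whether the absence at these genes belongs to the chromosomes was not tested. On the other autosomes, 26 of 32 genes had a peak (81.2%, 63.6 to 92.8%, with 42.1% of all genes there), and 21 of 32 had one within 1 kb of the TSS (65.6%, 46.8 to 81.4%, with 30.1% of all genes). When only long genes with a CpG ratio of at least 0.6 on these chromosomes were considered, a view chosen after the values above had been seen, 20 of 23 genes had a peak, or 87.0% (66.4 to 97.2%), against 69.8% of 3732 such genes. Within 1 kb of the TSS the numbers were 19 of 23, or 82.6% (61.2 to 95%), against 55.7%. The first interval includes the share of comparable genes. The second lies above it, but this cannot serve as a test for a view chosen after the values were seen. No test was made of these differences, since the group had been selected with results of these data known.

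**Figure D3:**
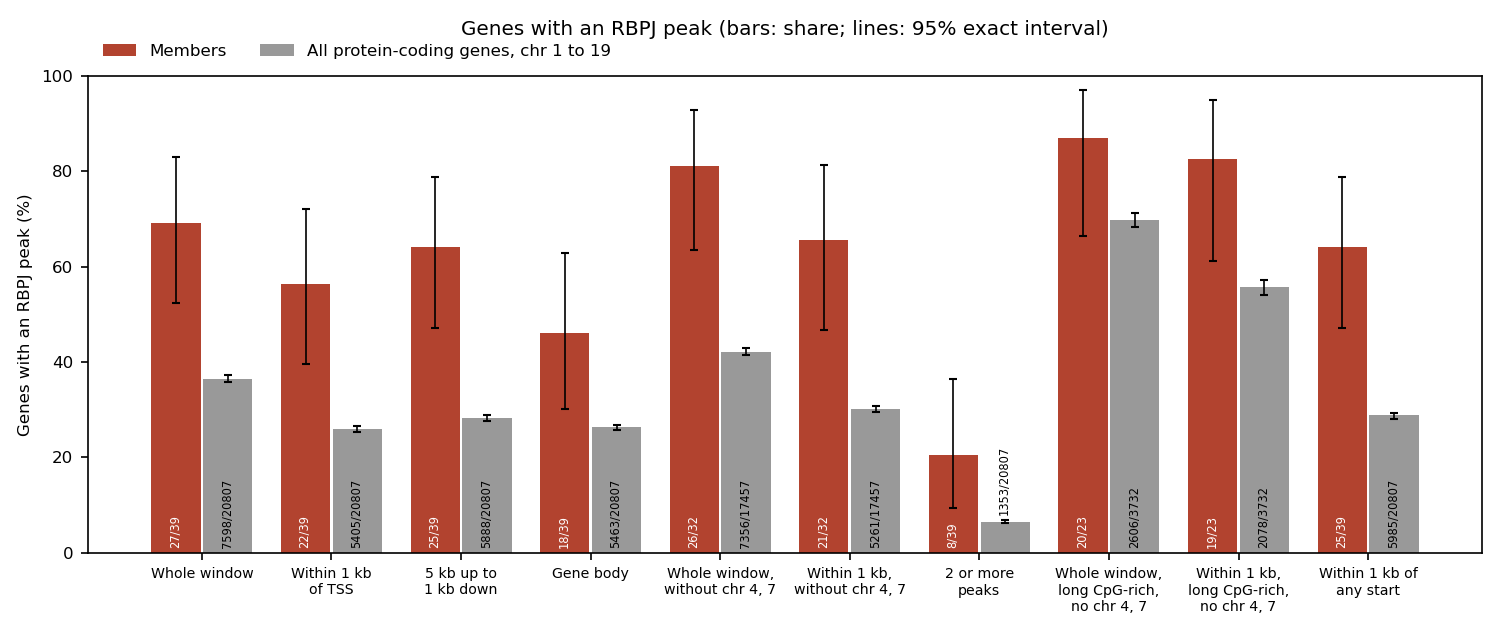
Percentage of genes with an RBPJ peak in the group (red) and among all protein-coding genes on chromosomes 1 to 19 (grey) for each window and subset, with 95% exact intervals as lines and counts written on or above the bars. The last pair counts every start of a protein-coding transcript. The red bar is higher in each pair, and the gap is smallest for genes with at least 2 peaks (20.5 against 6.50%) and for a peak in the whole window at long CpG-rich genes (87.0 against 69.8%).

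Among the H3K4 methyltransferases, 6 of 8 genes had a peak, and each of these 6 had one within 1 kb of the TSS. The shares of all genes were 36.5% and 26.0%. Those of long CpG-rich genes outside chromosomes 4 and 7 were 69.8% and 55.7%. Kmt2a and Kmt2b encode the catalytic subunits of MLL complexes that act at promoters. At Kmt2a the peak was 2004 bp wide and centred 245 bp upstream of the TSS, with 2 TGGGAA sites. The Kmt2b peak was narrower (635 bp, chr7:30588670-30589304), was centred 261 bp upstream and held 4 sites. Kmt2c and Kmt2d encode the large enzymes that place monomethyl marks at enhancers. The Kmt2c peak (2130 bp) was centred 78 bp upstream with 92.5% GC in its central 200 bp, and held 0 sites. Kmt2d had a peak of 916 bp centred 956 bp upstream with 2 sites. A second peak of 3501 bp lay in the gene (chr15:98866170-98869670), centred 3284 bp downstream in an intron, with 9 TGGGAA sites, the highest number in the group. At Kmt2e, whose product is related but has little known enzyme activity, the peak was centred 661 bp upstream. Setd7, whose product adds a single methyl group, had a peak of 1946 bp centred 196 bp downstream, with 3 sites.

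The remaining H3K4 methyltransferases, Setd1a and Setd1b, encode the enzymes of the SET1 complexes that place most trimethyl marks at promoters, and had no assigned peak. Setd1b was a near miss: the centre of the nearest peak, 4500 bp wide, was 5259 bp upstream of the TSS, just outside the window. For Setd1a, on chromosome 7, the nearest peak centre was 30964 bp upstream.

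All 4 methyltransferases of H3K36 had a peak, beside 36.5% of all genes and 69.8% of long CpG-rich genes outside chromosomes 4 and 7. Setd2 encodes the enzyme that adds the trimethyl mark and travels with RNA polymerase, and its peak of 1232 bp was centred 19 bp upstream of the TSS, with 0 TGGGAA sites. Nsd1, Nsd2 and Nsd3 encode enzymes that add the dimethyl mark. The peaks nearest to their TSSs spanned 2253 to 3273 bp. The Nsd2 peak spanned 3000 bp (chr5:33818545-33821544) around a centre 681 bp upstream. The Nsd1 interval (3273 bp) was centred 1663 bp downstream of the annotated TSS but only 374 bp from another start of a protein-coding transcript of this gene. Nsd3 had an interval of 2253 bp centred 1081 bp downstream, which covered the annotated TSS, and a second of 886 bp centred 4356 bp upstream. That second centre was within 1 kb of the start of the neighbouring gene Letm2, so it cannot be told apart from a peak of that gene.

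For the silencing marks, a peak was found at 1 of 2 genes for H3K27, 2 of 3 for H3K9 and 2 of 3 for H4K20. The whole group had a peak at 69.2% of its genes, beside 36.5% of all genes. These counts are too small to compare between marks. For H3K27, Ezh2, the catalytic subunit of PRC2 in dividing cells, had a peak of 1363 bp centred 471 bp downstream of its TSS, 160 bp from another start, with 1 TGGGAA site. Its paralog Ezh1 had none, and the nearest was centred 26917 bp upstream. For H3K9, Suv39h2, whose product adds trimethyl marks in heterochromatin, had a peak of 778 bp centred 9 bp upstream with 1 site. Ehmt2 (G9a) had none at its TSS but had a peak of 1367 bp centred 3726 bp upstream. For Ehmt1, its partner in the same complex, the nearest centre was 29967 bp upstream. For H4K20, Kmt5a (monomethylation) had a peak of 1946 bp centred 594 bp upstream and a second of 1258 bp (chr5:124445710-124446967) centred 6408 bp downstream. That second centre was 845 bp from another start of the gene. Kmt5b had a peak of 1193 bp centred 895 bp downstream in a coding exon and 83 bp from another start, and Kmt5c, on chromosome 7, had none.

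The 4 remaining Setd genes are less clearly histone enzymes. Setd3, which encodes the histidine methyltransferase of actin, had a peak of 1289 bp centred 97 bp downstream, which was also within 1 kb of the start of Ccnk. Setd5 had a wide peak (2761 bp, chr6:113076007-113078767) centred 22 bp downstream with 3 sites, and a narrow one of 274 bp with 0 sites in an intron, at 22461 bp. Setd4 and Setd6 had none, with the nearest centres 79715 and 91688 bp from their TSSs.

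Of the 15 demethylase genes, 10 had a peak and 8 had one within 1 kb of the TSS. The whole group had shares of 69.2% and 56.4%, and all genes 36.5% and 26.0%. Among the amine oxidases, Kdm1b had a peak of 988 bp centred 103 bp downstream with 2 TGGGAA sites, whereas for Kdm1a (LSD1), on chromosome 4, the nearest was 139945 bp away. Both Kdm5 genes on autosomes, which encode demethylases of trimethylated H3K4, had a promoter peak. At Kdm5a it spanned 1091 bp, was centred 43 bp downstream with 1 site and was shared with the start of the neighbouring gene Ccdc77. At Kdm5b it was only 218 bp wide (chr1:134560074-134560291), the narrowest promoter peak of the group, with 0 sites. The wider Kdm5b peak, 2052 bp with 3 sites, was centred 3847 bp upstream (chr1:134555299-134557350).

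Both Kdm3 genes, which encode demethylases of H3K9, had a single promoter peak without a TGGGAA site, of 948 bp at Kdm3a (133 bp upstream) and of 1179 bp at Kdm3b (319 bp downstream). In the Kdm4 family, whose products act on trimethylated H3K9 and H3K36, only Kdm4b had peaks. The first was 914 bp wide and centred 51 bp downstream of the TSS, and the second was 321 bp wide (chr17:56357629-56357949) in an intron, at 31727 bp. Kdm4a and Kdm4c lie on chromosome 4, where their nearest peaks were 182330 and 2041711 bp away, and the nearest to Kdm4d was 23397 bp upstream. Kdm7a, which acts on dimethylated H3K9 and H3K27, had a peak of 2154 bp centred 355 bp downstream. Kdm8, a JmjC gene of less certain activity on chromosome 7, had none, with the nearest centre 272283 bp away.

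Kdm6b, encoding the H3K27 demethylase JMJD3, stood out by its layout rather than by its TSS, which no peak covered. Its 3 peaks were centred 4702 bp upstream (1641 bp wide, 4 sites), 1683 bp upstream (198 bp wide, chr11:69415260-69415457, the narrowest of the group, 0 sites) and 3721 bp downstream in an intron. The last (chr11:69407977-69411931) was the widest of the group with 3955 bp and held 6 sites. The annotation has a single protein-coding start for this gene, and its CpG ratio of 0.17 was the lowest of the group.

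Kdm2a and Kdm2b encode demethylases of H3K36 that bind unmethylated CpG, and 3 of their 4 peaks were centred within 1 kb of an annotated start other than the 5' end. The Kdm2b peak of 1590 bp (chr5:122899534-122901123) was centred 89495 bp downstream of the annotated 5' end, and 27 bp from another start of a protein-coding transcript. The centre nearest to the 5' end itself was 25224 bp upstream of it. Kdm2a had a peak of 860 bp centred 989 bp downstream of its 5' end and 216 bp from another start. A second, of 923 bp (chr19:4333581-4334503), was centred 64243 bp downstream and 41 bp from another start. The remaining Kdm2a peak (358 bp, chr19:4315265-4315622) lay 18558 bp from any start. Of the group's 15 peaks beyond 1 kb from the annotated 5' end, 5 were within 1 kb of another start of the same gene (at Kdm2a, Kdm2b, Kmt5a, Nsd1 and Nsd3), or 33.3%, beside 18.8% of such pairs of genes and peaks in the genome. With every protein-coding start considered, 25 of the 39 genes had a promoter peak (64.1%, 47.2 to 78.8%, with 28.8% of all genes).

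The 22 peaks within 1 kb were centred at a median of 220 bp from the TSS, 10 upstream and 12 downstream, beside a median of 197 bp over all genes. Of these, 19 covered the TSS itself (86.4%, with 88.7% over all genes), and those of Kdm2a, Kmt2d and Kmt5b did not. In these measures the promoter peaks of the group were near those of all genes. Within 1 kb of the start of another protein-coding gene there were 2 of the 22, or 9.09% (Kdm5a with Ccdc77 and Setd3 with Ccnk). Over all genes the share was 24.3%. The share of the group rests on 2 peaks, and the difference was not tested. By centre, the 37 peaks fell upstream of the gene in 15 cases, in introns in 11, in untranslated regions in 10 and in a coding exon in 1.

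The peaks of the group were wide. Promoter peaks had a median of 1212 bp (quartiles 924 and 1946 bp, range 218 to 3000 bp), beside 814 bp (519 and 1343 bp) for the 4737 peaks within 1 kb of the TSS of any gene. Under 500 bp there was 1 of 22, or 4.55%, where 23.3% of all promoter peaks were. For long genes with a CpG ratio of at least 0.6 outside chromosomes 4 and 7, the median was 1232 bp over 19 peaks of the group and 878 bp over 1992 peaks. At these genes 5.26% and 18.2% of the peaks were under 500 bp. Both shares of the group rest on 1 peak, and the differences were not tested. The 15 peaks beyond 1 kb of their own gene's TSS had a median of 1367 bp (198 to 3955 bp), beside 558 bp for 3491 peaks assigned to genes but over 1 kb from any 5' end. The list has no height, and the study joined neighbouring calls into 1 peak, so a width here can be that of 1 site or of several.

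**Figure D4:**
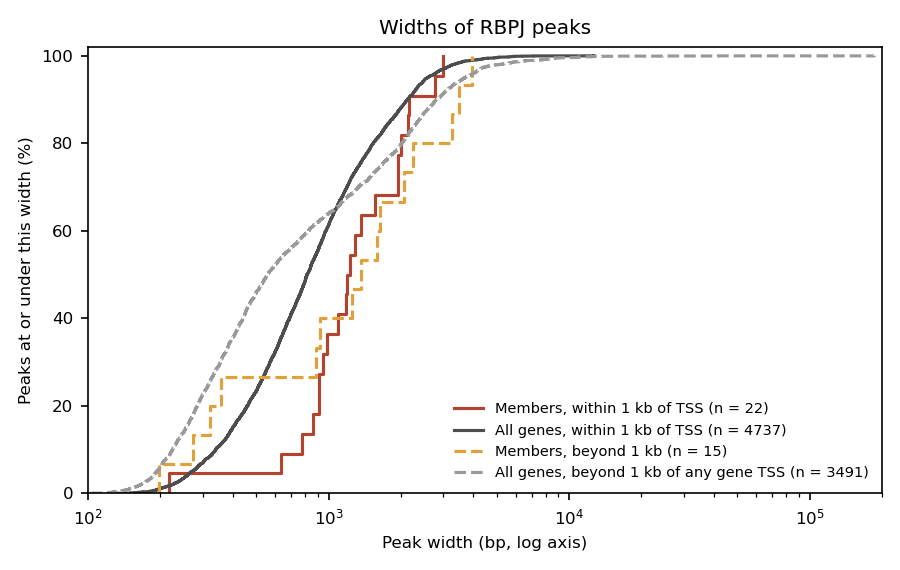
Cumulative share of peaks (vertical axis, percent) at or under each width (horizontal log axis, bp) for promoter peaks (solid) and peaks beyond 1 kb (dashed) of the group (red, orange) and of all genes (dark and light grey). The curves of the group lie to the right over most of the range, with promoter medians of 1212 against 814 bp.

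Near the centre, within 200 bp in all, TGGGAA occurred in 8 of the group's 37 peaks, a share of 21.6% (9.83 to 38.2%), beside 22.6% of the 8228 peaks assigned to any gene. Within 1 kb of the TSS the count was 3 of 22 (13.6%, 2.91 to 34.9%, with 15.3% of all promoter peaks), and beyond 1 kb of the gene's own TSS it was 5 of 15 (33.3%, 11.8 to 61.6%). The share was 32.5% for assigned peaks over 1 kb from the 5' end of any gene, a narrower definition that leaves out peaks such as that of Nsd3 near Letm2. Whole peaks held at least 1 site in 27 of 37 cases, or 73.0%, beside 62.7% of all assigned peaks. Counted per length the values were alike, with 64 sites in 55.0 kb of the group's peaks (1.16 per kb) and 1.19 per kb over all assigned peaks. Altogether 22 genes had a site somewhere in a peak, and 13 had the longer GTGGGAA. These counts of genes have no share over all genes beside them. By peak, GTGGGAA was in 15 of 37 (40.5%), beside 28.0% of all assigned peaks. It was in 26.9% of assigned peaks no wider than the widest of the group. The group's peaks were wider, and the part of width was not tested. TGGGAA was absent from the promoter peaks of Kmt2c, Setd2, Kdm3a, Kdm3b, Kdm2a, Kdm5b and Kmt5b. It was also absent from the second Kdm2a peak, the intronic Setd5 peak and the narrow Kdm6b peak. The median GC content of the central 200 bp was 68.0%, beside 60.0% over all assigned peaks.

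**Figure D5:**
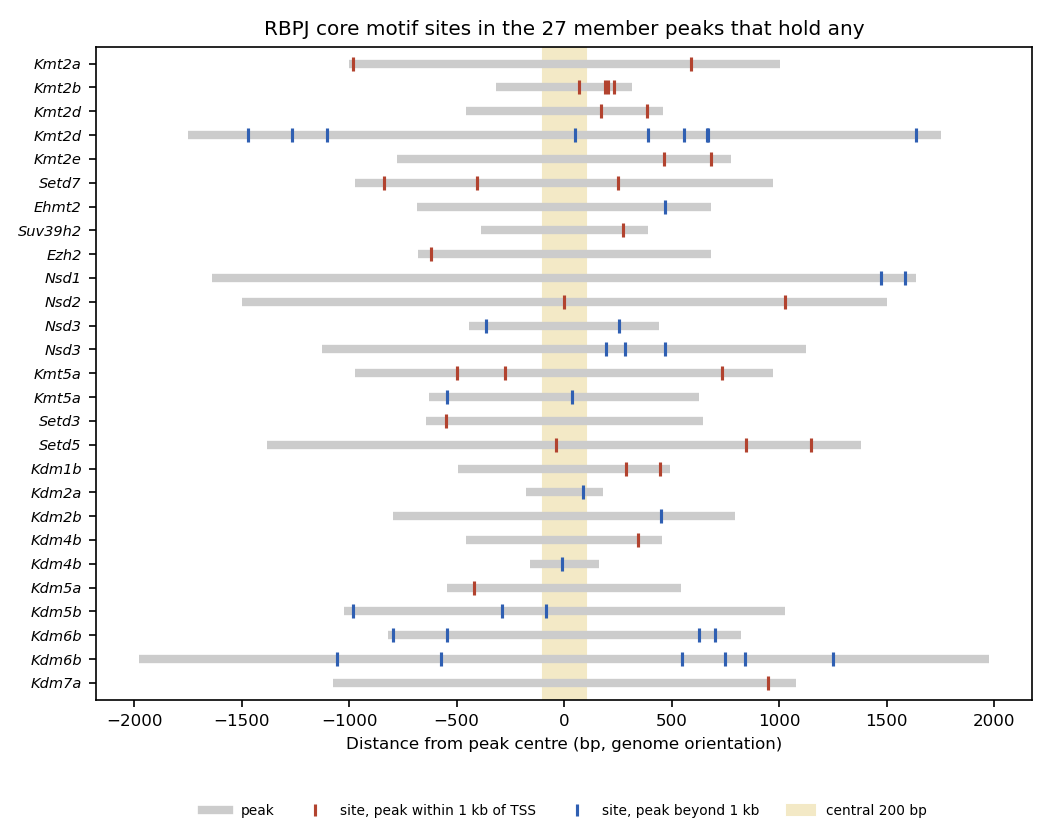
Positions of TGGGAA on either strand (ticks; red in promoter peaks, blue in peaks beyond 1 kb) relative to the centre of the 27 peaks that hold it, in bp along the genome. Grey bars are the peaks and the shaded band is the central 200 bp, where 8 peaks have a site. Sites are spread over the peaks, and the intronic peak of Kmt2d has 9.

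In a few peaks the sites were close together. Windows of 300 bp with at least 4 TGGGAA sites occurred in 2 of the 37 peaks (5.41%, 0.661 to 18.2%), at Kmt2b and in the intronic peak of Kmt2d, and in 0.486% of all assigned peaks. At least 3 sites occurred in 4 peaks (10.8%, 3.03 to 25.4%, with 4.65% of all), those named and 1 each at Kdm6b and Nsd3. These shares rest on few peaks, and wider peaks have more room for such a window (median 1258 against 746 bp), while the sites per kb given above were alike. The part of width was not tested. The densest stretches that are free of annotated exons are shown on GRCm38, 5' to 3' in the direction of the gene. Capitals mark the core, which reads TGGGAA on the printed strand and TTCCCA where the site is on the other.
Kmt2b (chr7:30588987-30589286, minus strand): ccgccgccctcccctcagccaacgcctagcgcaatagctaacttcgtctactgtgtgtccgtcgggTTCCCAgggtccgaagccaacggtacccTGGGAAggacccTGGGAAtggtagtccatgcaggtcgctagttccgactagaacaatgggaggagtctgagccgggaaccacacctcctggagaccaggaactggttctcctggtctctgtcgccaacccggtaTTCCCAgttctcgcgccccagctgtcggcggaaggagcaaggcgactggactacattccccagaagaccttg
Kmt2d (chr15:98868301-98868600, minus strand): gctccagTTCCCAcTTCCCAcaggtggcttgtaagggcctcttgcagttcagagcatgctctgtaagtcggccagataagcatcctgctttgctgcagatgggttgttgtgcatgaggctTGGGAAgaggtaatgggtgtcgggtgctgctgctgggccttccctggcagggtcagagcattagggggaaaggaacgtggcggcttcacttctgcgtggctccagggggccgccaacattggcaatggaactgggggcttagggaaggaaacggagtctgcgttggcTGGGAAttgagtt
Kdm6b (chr11:69410498-69410797, minus strand): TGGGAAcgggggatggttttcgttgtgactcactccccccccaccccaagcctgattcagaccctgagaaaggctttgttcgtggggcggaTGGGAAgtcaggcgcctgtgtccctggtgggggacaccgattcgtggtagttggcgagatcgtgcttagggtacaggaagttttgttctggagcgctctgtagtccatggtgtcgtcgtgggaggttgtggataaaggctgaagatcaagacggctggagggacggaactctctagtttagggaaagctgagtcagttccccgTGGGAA

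In the Kmt2b stretch, centred 410 bp upstream of the TSS, 2 sites were on the printed strand and 2 on the other. The Kmt2d stretch was centred 2754 bp downstream of the TSS and had the same numbers, with 2 of the 4 sites almost touching. The Kdm6b stretch, centred 3028 bp downstream in an intron, had its 3 sites on the printed strand.

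Genes whose products act with these enzymes but whose symbols fall outside the definition were compared next, from a list of 46 genes. Of these, 29 had a peak by the same assignment, or 63.0%, and 22 had one within 1 kb of the TSS, where 36.5% and 26.0% of all genes did. Gene length and CpG ratio went with peaks in the genome as a whole. The list was not matched for either, and the part of these properties in its shares was not tested. Subunits of PRC2 had a peak in 6 of 8 cases. Suz12, a core subunit, had a promoter peak centred 120 bp upstream, and Jarid2, an accessory subunit that helps to recruit the complex, had 6 peaks, with the nearest 1429 bp downstream. The core subunits Eed and Rbbp4, on chromosomes 7 and 4, had none. The list has 7 genes on these chromosomes. Among them Pagr1a and Psip1 had promoter peaks, centred 552 and 6 bp downstream, while Hdac1, Prdm2 and Trim28 also had none. Whether these absences belong to the chromosomes was not tested. Among subunits of H3K4 methyltransferase complexes, 6 of 10 genes had a peak, including Wdr5 (190 bp downstream) and Men1 (46 bp upstream, encoding menin), whereas Rbbp5, Ash2l, Dpy30 and Ncoa6 had none. Readers and cofactors of H3K9 methylation had a peak at 5 of 6 genes, all 3 genes for HP1 proteins (Cbx1, Cbx3 and Cbx5) at the promoter. The LSD1 complex had peaks at 3 of 6 genes, other methyltransferases at 7 of 12, among them Dot1l and Setdb1, and other demethylases at 2 of 4. The share of 63.0% for the list stood beside 69.2% for the group itself, and the difference was not tested.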

How the data were processed

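RBPJ ChIP-seq of RD1 cells was analysed from the peak files of 2 samples, whose groups and replicate numbers come from the sample titles. Per the methods, alignment was with bowtie (GRCm38), duplicates were removed, and Macs2 and Peakranger each called peaks in both replicates. Calls up to 2 kb apart were joined, a region needed 3 overlapping calls or more, and ENCODE's blacklist was applied. The files deposited by the authors hold only positions (start and end in bp, starts counted from 1) and no signal. Merging can widen peaks and shift their centres, and the peak files give no depth per sample.

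Genes and starts were taken from GENCODE M21 and sequence from GRCm38.p6, whose chromosome names match and which no peak exceeds (0 of 11094). The TSS was the 5' end of the gene, and motifs were searched on both strands. CpG ratios cover 500 bp to either side of the TSS. Shares carry 95% exact binomial intervals. No test was made, since 1 list gives no replicate error and the members and lists were chosen with earlier results of these data known. Every gene of the group is named. Coordinates are given for peaks with TGGGAA near the centre, for the widest and narrowest peaks and for some singled out after their values were seen, as were the clusters of sites. Alternatives covered replicates, peak width, chromosomes, overlap, TSS sets, distance and motif windows. Assignment, motif search and intervals were tested on simulated data. Sequence was read with pysam 0.24.0, intervals came from scipy 1.17.1, figures from matplotlib 3.10.9, and tables from pandas 2.3.3 and numpy 2.4.6 under Python 3.11.15.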

Additional observations from a re-analysis of the deposited data

How the results depend on the processing

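The 27 genes with a peak became 25 without peaks shared with the start of another gene, 28 with any overlapping base and 18 with the gene body alone. The 22 genes with a promoter peak ranged from 16 within 500 bp to 25 within 2 kb. No share of all genes is given at these distances. The genes with a peak from 5 kb upstream to 1 kb downstream ranged from 24 to 27. The 24 was counted among the 32 genes outside chromosomes 4 and 7. The assigned peaks ranged from 32 to 40 and the median width from 1258 to 1365 bp. Without RBPJ replicate 1 or replicate 2, the counts were 27, 22 and 25 genes, 37 peaks, a TGGGAA share of 21.6% and a median width of 1258 bp each time, since the files are the same. That share fell to 10.8% in the central 100 bp (13.1% of all assigned peaks) and to 10.8% for TGAGAA in place of TGGGAA (12.3%), both inside the interval of the 21.6%. It moved outside it to 73.0% in whole peaks, which are longer, and to 2.70% for GTGGGAA, a stricter motif. The 29 of 46 genes of the partner list (63.0%) became 27 of 39 (69.2%) without chromosomes 4 and 7, an alternative chosen after seeing the data. No paired analysis was possible because both RBPJ files hold 1 list. Since the peak files give no depth or height, absence of a peak is not evidence that RBPJ was absent.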
